A study of Mus musculus with 16 samples.

Results

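The 9 genes described here name the transmitter and the interneuron class of a forebrain neuron: Gad1, Gad2, Slc32a1, Slc17a6, Slc17a7, Sst, Npy, Calb1 and Calb2. They were chosen by name from 24982 genes counted in 16 primary rhabdoid tumors of the mouse, each from a different animal. All animals were Smarcb1flox/flox;R26-CreERT2, so that tamoxifen given to the embryo activates Cre from the ubiquitous Rosa26 locus and deletes Smarcb1, a core subunit of the SWI/SNF chromatin remodeling complex, in cells of no restricted type. No tumor-free tissue and no tumor with intact Smarcb1 was compared. There were 5 tumors within the brain parenchyma (intra-CNS, which the study names Shh) and 11 tumors outside it (extra-CNS, which the study names Myc). Of the 11 tumors, 6 were intracranial and 5 were extracranial, in the back, the jaw (2 tumors), the nose and the mouth. Tamoxifen was given at E6 for all 5 intra-CNS tumors, and at E6 for 2, E7 for 1 and E8 for 8 of the extra-CNS tumors, so that site and day of induction largely coincide. The animals were 30 to 180 days old with intra-CNS tumors and 52 to 210 days old with extra-CNS tumors.

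GABAergic neurons make their transmitter from glutamate with the decarboxylases encoded by Gad1 and Gad2, and load it into vesicles with the transporter encoded by Slc32a1. Glutamatergic neurons load glutamate with the transporters encoded by Slc17a7, which is typical of the cortex and hippocampus, and Slc17a6, which is typical of the thalamus, hypothalamus and brainstem. The neuropeptides somatostatin (Sst) and neuropeptide Y (Npy) and the calcium-binding proteins calbindin (Calb1) and calretinin (Calb2) divide cortical and striatal interneurons, many of which are born in the ganglionic eminences, into classes. Several of these genes are used elsewhere too: Npy by sympathetic neurons and, in rodents, by megakaryocytes, Calb1 by the kidney and Calb2 by mesothelium.

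Npy, Slc32a1 and Slc17a7 are shown first by the 250 bases before their start in RefSeq (GRCm38.p6), since they stand for the 3 patterns found outside the brain: high in most tumors, nearly absent, and low but present. The windows are chr6:49822460-49822709 for Npy, chr2:158610508-158610757 for Slc32a1 and chr7:45163671-45163920 for Slc17a7, all on the plus strand and printed in lower case because none of the 3 motifs searched is in them. The stretch before Sst, at chr16:23890874-23890903 on the minus strand, covers bases -59 to -30 and has the cAMP response element in capitals.
Npy: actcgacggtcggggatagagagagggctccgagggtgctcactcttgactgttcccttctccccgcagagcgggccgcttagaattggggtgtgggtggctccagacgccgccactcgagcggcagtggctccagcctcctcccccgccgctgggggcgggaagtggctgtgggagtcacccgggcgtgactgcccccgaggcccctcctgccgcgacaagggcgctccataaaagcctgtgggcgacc
Slc32a1: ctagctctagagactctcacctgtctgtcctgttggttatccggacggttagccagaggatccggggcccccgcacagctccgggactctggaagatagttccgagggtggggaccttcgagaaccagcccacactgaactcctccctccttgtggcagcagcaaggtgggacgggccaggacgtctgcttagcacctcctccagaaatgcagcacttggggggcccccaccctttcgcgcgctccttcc
Slc17a7: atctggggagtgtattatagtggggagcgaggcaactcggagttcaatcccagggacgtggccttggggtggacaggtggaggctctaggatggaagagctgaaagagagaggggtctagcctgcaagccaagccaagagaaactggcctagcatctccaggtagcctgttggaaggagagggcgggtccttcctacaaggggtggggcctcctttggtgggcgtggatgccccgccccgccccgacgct
Sst: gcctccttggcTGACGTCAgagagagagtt

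The motifs searched on both strands were TGACGTCA (the cAMP response element), TATAAA (the TATA box) and TAATTA (a core bound by homeodomain proteins), none of which contains another. Over 32536 promoter windows of 250 bases they were found in 1.56%, 12.3% and 4.84%, respectively. RefSeq promoters were found for 7 of the 9 genes. The cAMP response element was found before Sst alone of these 7, with its first base at -48. TATAAA was found before Gad1, with its first base at -141, and TAATTA at -81 before the second of the starts listed for Slc17a6. The window of Npy had a GC content of 69.2% and 21 CpG dinucleotides, that of Slc32a1 62.4% and 12, and that of Slc17a7 61.2% and 9, against medians of 52.4% and 6 over all windows. A match of letters is no evidence of binding.

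Libraries held 17889968 to 110177889 counts, and a count of 3, taken as the floor, corresponded to 0.0272 to 0.168 CPM (counts scaled to library size). Levels are TPM (counts scaled by gene length and library size), and differences are log2 fold changes fitted by edgeR to the counts, with their standard errors (SE) and with p adjusted over all genes tested. A gene was called where its log2 fold change exceeded 1 in either direction and its adjusted p was under 0.05. The targeted gene, Smarcb1, was still counted in every tumor, at 3.99 to 58.1 TPM in intra-CNS and 6.48 to 43.7 TPM in extra-CNS tumors, and the counts do not separate deleted from intact transcripts. The tumor of mouse 29048 stood apart. It had the highest Smarcb1 of all tumors, and its 8 oligodendrocyte markers, such as Mbp and Mag, summed to 7202 TPM against 53.9 to 187 TPM in the other 4 intra-CNS tumors. Its 12 markers of mature forebrain neurons summed to 3400 TPM, against 307 to 1280 TPM in the other 4. R26P115 was the extra-CNS tumor with the most Smarcb1 (43.7 TPM) and had the highest sum of the mature neuron markers outside the brain (953 TPM), of which Ppp1r1b alone, the gene of the striatal signaling protein DARPP-32, made up 922 TPM. Its other 11 markers summed to 31.0 TPM, the lowest such sum of all tumors. Results that rest on 29048 are given with and without it. In bulk RNA, fewer cells of a type and less RNA per cell cannot be told apart.

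The comparison of intra-CNS with extra-CNS tumors asks which transmitter and interneuron genes go with growth inside the brain. Of the 9 genes, 6 were called, and all 6 were higher in intra-CNS tumors: Gad2, Slc32a1, Slc17a6, Slc17a7, Sst and Calb2. Gad1, Calb1 and Npy were not called. Over all 21854 genes tested, 12.9% were called as higher and 13.1% as lower in intra-CNS tumors. The median log2 fold change was 4.03 over the 9 genes and -0.15 over all genes, and 3.03 and -0.21 without the tumor of 29048. For Slc32a1, Slc17a6 and Calb2, each intra-CNS tumor lay above all 11 extra-CNS tumors, which held for 12.9% of 21841 genes. Outside the brain, edgeR called none of the 9 genes between the intracranial and extracranial tumors, and DESeq2 called Slc32a1.

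**Figure D1:**
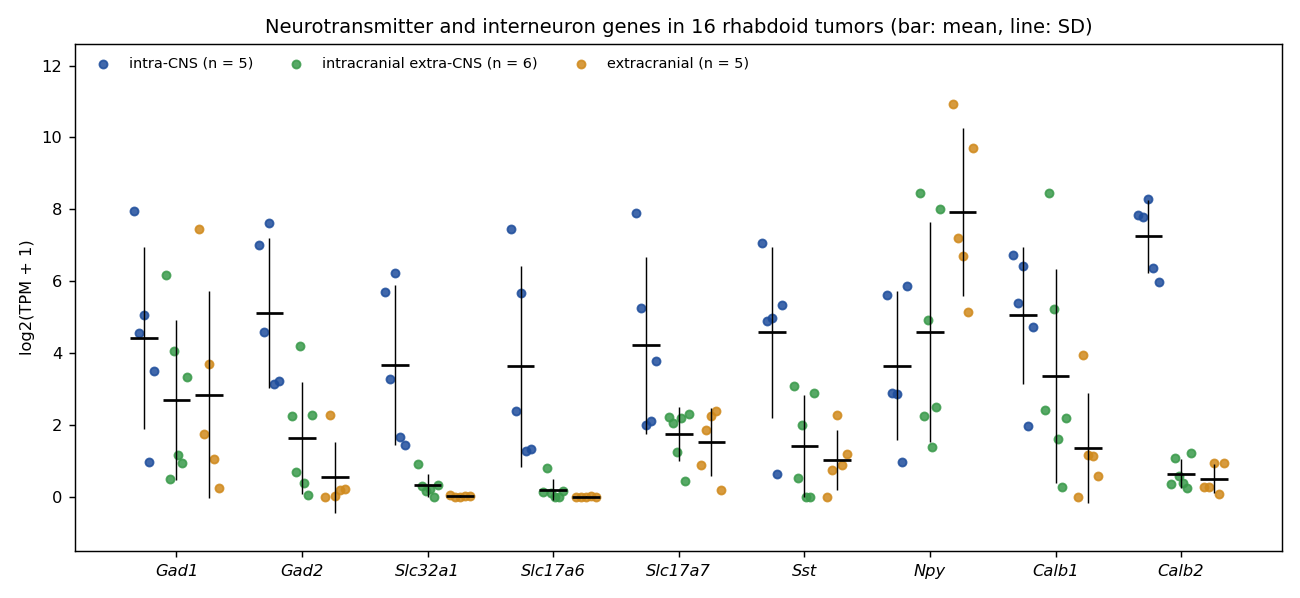
Levels of the 9 genes as log2(TPM + 1), with 1 point per tumor and the groups in the order intra-CNS, intracranial extra-CNS and extracranial; horizontal bars are means and vertical lines SDs. The intra-CNS points of Calb2 lie between 5.99 and 8.28 and its extra-CNS points between 0.07 and 1.22, while the extracranial points of Npy reach 10.92.

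Calb2, the gene of calretinin (GRCm38 chr8:110137502-110168210), left the widest gap of the 9 genes between the lowest intra-CNS and the highest extra-CNS tumor on log2(TPM + 1), although the fitted log2 fold change of Slc17a6 was larger (8.23). The level of Calb2 was 228 TPM in 29048, 309 TPM in 38594A, 222 TPM in 29050A, 62.6 TPM in R26P98 and 81.0 TPM in R26P87. In the 11 extra-CNS tumors it ranged from 0.0517 to 1.33 TPM with a median of 0.319 TPM, and 3 of them held 3 counts or fewer. All intra-CNS tumors were thus high, and the lowest of them exceeded the highest extra-CNS tumor. The difference was 7.81 (SE 0.61, edgeR adjusted p = 6.88e-07). The exact permutation test on log2(TPM + 1) gave p = 0.000458, the smallest that 5 tumors against 11 allow (adjusted over all genes, 0.00299). Calb2 was called in every alternative fit of this comparison with edgeR, DESeq2 and limma, with log2 fold changes of 7.54 to 8.03 when single tumors were left out, and it was the only one of the 9 genes called as higher among tumors induced at E6 (7.24, edgeR adjusted p = 0.00664, 5 tumors against 2). Calretinin also marks mesothelium, whose 5 markers went both ways. Msln (-10.01, SE 1.93, edgeR adjusted p = 0.000928) and Upk3b (-3.16, adjusted p = 0.0251) were lower in intra-CNS tumors and Wt1 (4.72, adjusted p = 0.0117) was higher, although Upk3b held 3 counts or fewer in every tumor. The 5 markers summed to 0.207 to 9.59 TPM within and 3.89 to 2721 TPM outside the brain, and without Msln to 0.156 to 9.54 TPM and 0.0262 to 7.96 TPM. The part of these cells in the level of Calb2 was not tested.

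Slc32a1, which encodes the vesicular GABA transporter (chr2:158610767-158615748), was at 51.2 TPM in 29048, 74.7 TPM in 38594A, 8.79 TPM in 29050A, 1.74 TPM in R26P98 and 2.21 TPM in R26P87. The intra-CNS tumors themselves therefore fell apart, with 29048 and 38594A well above the rest. In extra-CNS tumors the level was 0 to 0.872 TPM (median 0.0374), and 7 of 11 held 3 counts or fewer, all 5 extracranial tumors among them. The difference was 6.90 (SE 1.16, edgeR adjusted p = 0.000329) and 6.55 without 29048 (adjusted p = 0.00107). The antisense gene Gm14205 overlaps Slc32a1 on the other strand, and how the counting used strand is not given in the sources used here, so that reads of this pair cannot be told apart.

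Gad2, a decarboxylase gene of GABA synthesis (chr2:22622205-22693874), was at 127 TPM in 29048, 195 TPM in 38594A, 22.8 TPM in 29050A, 8.31 TPM in R26P98 and 7.89 TPM in R26P87. In extra-CNS tumors it ranged from 0 to 17.3 TPM (median 0.305). The groups overlapped, because the intracranial tumor of 43989C, at 17.3 TPM, lay above R26P98 and R26P87. The difference was 4.19 (SE 1.30, edgeR adjusted p = 0.0203), and it lost its call without 38594A (3.41, adjusted p = 0.0734) and against intracranial tumors alone (3.54, adjusted p = 0.0650). In that last fit Slc32a1, Slc17a6, Slc17a7 and Calb2 were called, all higher, and of all genes tested 23.0% were called in either direction. Without both 29048 and R26P115, 5 of the 9 genes were called as higher, Gad2 and Sst among them, against 14.2% of all genes.

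Gad1, its paralog (chr2:70553072-70602014), did not follow Gad2. Within the brain it was at 246 TPM in 29048, 32.2 TPM in 38594A, 22.8 TPM in 29050A, 10.4 TPM in R26P98 and 0.948 TPM in R26P87. Outside the brain it ranged from 0.197 to 174 TPM (median 2.38). The back tumor of 43825B had 174 TPM of Gad1 (6593 counts) and no count of Gad2, the nose tumor of 43990A 12.1 TPM (659 counts) and 1 count of Gad2, and the intracranial tumor of 29225D 70.6 TPM against 3.78 TPM of Gad2. The groups overlapped, and the difference of 0.75 (SE 1.36) did not pass the test (edgeR adjusted p = 0.688). It was -1.16 without 29048 (adjusted p = 0.580). Gad1 made up 10.7% to 66.0% of the summed Gad1 and Gad2 TPM within the brain and 37.9% to 100% outside it. Gad1os overlaps Gad1 on the other strand, with the same limit as for Slc32a1. On the same strand, Gm45072 overlaps Slc17a6, Mir7055 overlaps Slc17a7, and Gm23636 and Mir3967 overlap Gad2. How reads shared with these genes were counted is not given in the sources used here.

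**Figure D2:**
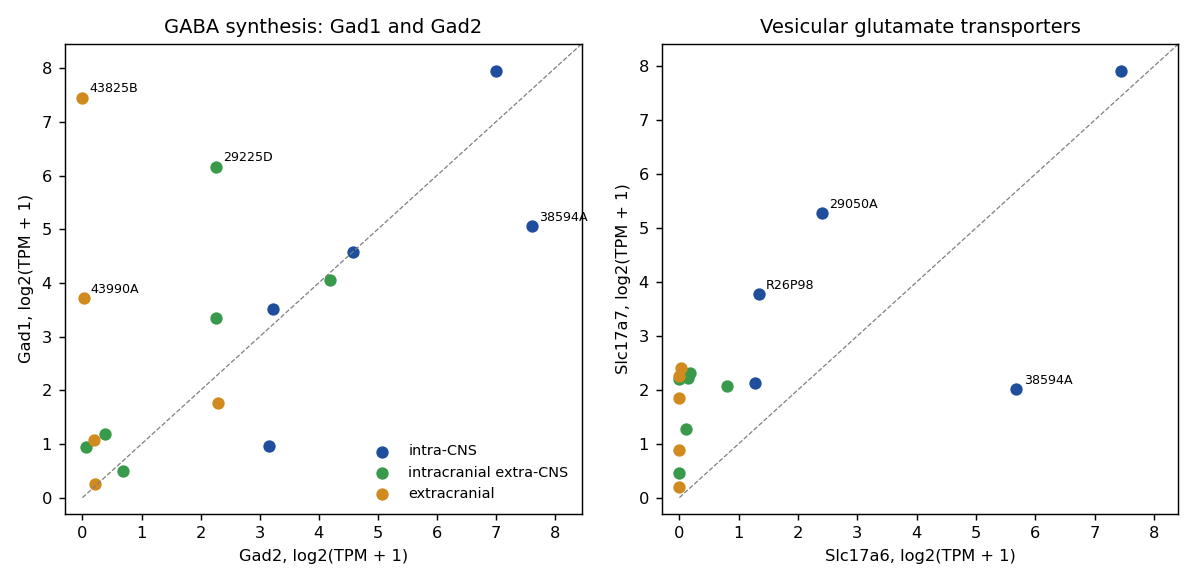
Gad1 against Gad2 (left) and Slc17a7 against Slc17a6 (right), both as log2(TPM + 1), with 1 point per tumor, the dashed line marking equal levels and mouse names on tumors over 2.4 apart. In 43825B and 43990A Gad1 is present with Gad2 at 1 count or none, and all 11 extra-CNS tumors lie at the left edge of the right panel, with Slc17a6 at 0.740 TPM or less.

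Slc17a6, a vesicular glutamate transporter gene (chr7:51622006-51671119), was at 174 TPM in 29048, 50.3 TPM in 38594A, 4.27 TPM in 29050A, 1.53 TPM in R26P98 and 1.43 TPM in R26P87. In extra-CNS tumors its level was 0 to 0.740 TPM (median 0), and 8 of 11 held 3 counts or fewer. The groups did not overlap, although R26P98 and R26P87 exceeded the highest extra-CNS tumor only narrowly on this scale. The difference was 8.23 (SE 1.42, edgeR adjusted p = 0.000411) and 6.60 without 29048 (adjusted p = 0.00284).

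Slc17a7, the second vesicular glutamate transporter (chr7:45163949-45176142), was at 240 TPM in 29048, 3.04 TPM in 38594A, 37.6 TPM in 29050A, 12.7 TPM in R26P98 and 3.35 TPM in R26P87. Of the 9 genes it varied least outside the brain relative to its mean, from 0.145 to 4.28 TPM (2.53 ± 1.54 TPM, SD, n = 11), and every extra-CNS tumor held more than 3 counts. The tumors of 38594A and R26P87 lay within that range, so that the groups overlapped. The difference was 4.03 (SE 0.86, edgeR adjusted p = 0.00193), and it fell to 1.99 and lost its call without 29048 (adjusted p = 0.0508). In 38594A, where Slc17a6 was 50.3 TPM, Slc17a7 made up 2.37% of the summed TPM of Slc32a1, Slc17a6 and Slc17a7, against 47.9% to 79.5% in the other 4 intra-CNS tumors and 76.7% to 100% in the extra-CNS tumors.

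All 3 vesicular transporters and both decarboxylases thus had counts above the floor in each intra-CNS tumor. Outside the brain this held for the intracranial tumors of 29941C, 29225D and R26P170 alone. The proportions of these genes differed between tumors. The tumor of 29048, where the oligodendrocyte and mature neuron markers were highest, had the most Gad1, Slc17a6 and Slc17a7. That of 38594A had the most Gad2 and Slc32a1 and the least Slc17a7 of the intra-CNS tumors, with oligodendrocyte markers at 84.5 TPM and mature neuron markers at 1280 TPM. Slc32a1 made up 58.4% of the vesicular transporter TPM in 38594A and 10.9% to 31.6% in the other 4. Without 29048, 4 of the 9 genes were still called as higher, Gad2, Slc32a1, Slc17a6 and Calb2, against 22.8% of all genes called in either direction. The part of mature neurons and oligodendrocytes in the levels of the other tumors was not tested.

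Sst, the gene of the peptide somatostatin (chr16:23889573-23890958), was at 132 TPM in 29048, 30.5 TPM in 38594A, 29.0 TPM in 29050A, 39.4 TPM in R26P98 and 0.554 TPM in R26P87. In extra-CNS tumors it ranged from 0 to 7.43 TPM (median 0.864). Of the intra-CNS tumors, 4 lay above all extra-CNS tumors and R26P87, with 3 counts, lay among them. The difference was 3.92 (SE 1.09, edgeR adjusted p = 0.0116), and it lost its call without 29048 (3.03, adjusted p = 0.0562) and against intracranial tumors alone (3.52, adjusted p = 0.0748).

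Npy, the gene of neuropeptide Y (chr6:49822710-49829507), ran the other way. It was at 48.2 TPM in 29048, 6.28 TPM in 38594A, 6.43 TPM in 29050A, 57.8 TPM in R26P98 and 0.981 TPM in R26P87. Among the 11 extra-CNS tumors it ranged from 1.62 to 1942 TPM (median 102). The 5 extracranial tumors had 1942 TPM (43825B), 834 TPM (R26P123), 146 TPM (43987A), 102 TPM (43990A) and 34.1 TPM (43998A). The 6 intracranial tumors had 347 TPM (29225D), 256 TPM (R26P170), 29.5 TPM (43989C), 4.68 TPM (R26P115), 3.80 TPM (29941C) and 1.62 TPM (43992A). Thus 6 extra-CNS tumors lay above every intra-CNS tumor, while 3 intracranial tumors were as low as the low intra-CNS tumors. The difference was -4.31 (SE 1.64) and missed the threshold (edgeR adjusted p = 0.0535; exact permutation test, p = 0.131). Npy was called as lower in intra-CNS tumors with DESeq2 (-4.30, adjusted p = 0.00100), with edgeR's filter on low counts (adjusted p = 0.0474), against extracranial tumors alone (-5.17, adjusted p = 0.0190) and among tumors induced at E6 (-6.12, adjusted p = 0.0239). Of all genes tested, 14.7%, 16.5%, 12.7% and 10.6% were called as lower in these 4 fits. Npy was also called when the intracranial tumor of 43992A, 29941C or R26P115 was left out (adjusted p = 0.0382, 0.0417 and 0.0358). Of the 7 markers of sympathetic neurons, which make neuropeptide Y, Dbh was over the floor in 1 of the 16 tumors, Th in 6, and Ddc and Prph in 15 each. The list summed to 3.35 to 29.4 TPM within and 1.47 to 674 TPM outside the brain, where Ddc held 671 TPM of the highest sum, in 29225D. Without Ddc, which is made in many tissues, the other 6 markers summed to 2.17 to 15.4 TPM within and 1.10 to 17.1 TPM outside it. The 5 megakaryocyte markers summed to 3.65 to 16.9 TPM within and 24.5 to 385 TPM outside it, and did not follow Npy throughout. They were highest in 43825B (385 TPM) and R26P123 (159 TPM), the tumors with the most Npy, and lowest of the extra-CNS tumors in 29225D (24.5 TPM), which had the third most. Pf4 alone held 371 TPM of the sum in 43825B and 128 TPM in R26P123. The other 4 markers summed to 1.95 to 15.7 TPM within and 9.33 to 39.3 TPM outside the brain, with 13.8 TPM in 43825B. The part of these cells in the level of Npy was not tested.

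Calb1, the gene of calbindin (chr4:15881264-15908064), was at 106 TPM in 29048, 84.9 TPM in 38594A, 41.1 TPM in 29050A, 25.6 TPM in R26P98 and 2.89 TPM in R26P87. In extra-CNS tumors it ranged from 0 to 350 TPM (median 2.03). The intracranial tumor of 29941C, with 350 TPM and 48220 counts, exceeded all others, and of the extra-CNS tumors 43989C (36.8 TPM) and 43987A (14.4 TPM) followed. The rest of the extra-CNS tumors lay at or below 4.33 TPM. The fitted difference was -0.01 (SE 1.53, edgeR adjusted p = 0.995) and 2.49 without 29941C (adjusted p = 0.104). On log2(TPM + 1), on which a single high tumor weighs less, the means were 5.05 within and 2.45 outside the brain (exact permutation test, p = 0.0710).

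**Figure D3:**
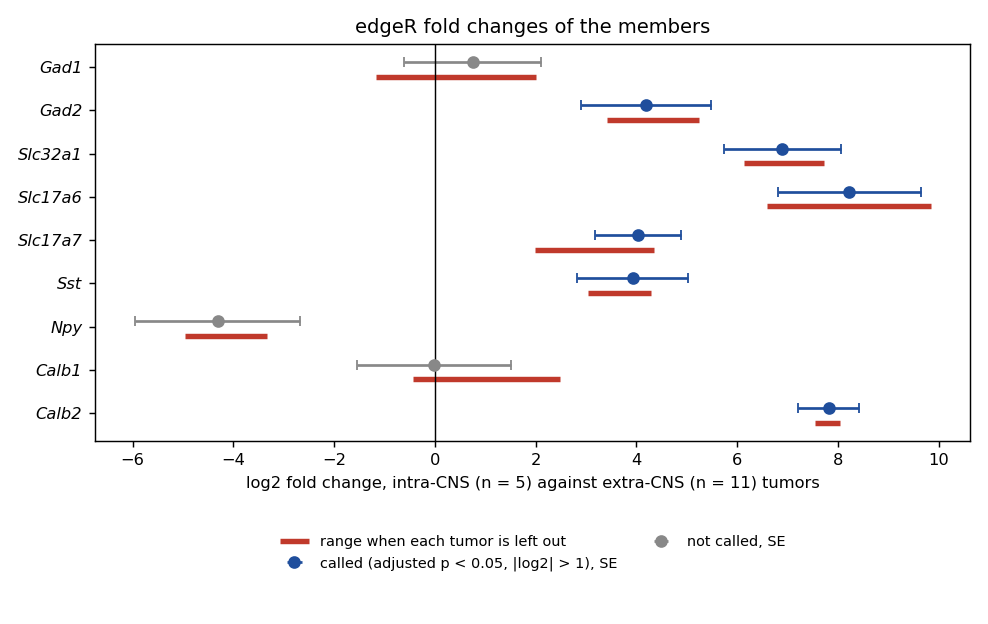
Log2 fold changes of the 9 genes between intra-CNS (n = 5) and extra-CNS (n = 11) tumors from edgeR, with SE, and in red the range of the estimate when each tumor is left out in turn. The range of Gad1 spans -1.16 to 2.01 and that of Calb1 -0.44 to 2.49, across 0, while that of Calb2 spans 7.54 to 8.03.

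By the median, the order of the genes within the brain was Calb2 (222 TPM), Calb1 (41.1), Sst (30.5), Gad2 (22.8), Gad1 (22.8), Slc17a7 (12.7), Slc32a1 (8.79), Npy (6.43) and Slc17a6 (4.27). Neighbors in this order overlapped in their ranges, Calb2 and Calb1 included, and the ranges of all but Calb2 spanned over a factor of 10. Outside the brain the order was Npy (102 TPM), Slc17a7 (3.20), Gad1 (2.38), Calb1 (2.03), Sst (0.864), Calb2 (0.319), Gad2 (0.305), Slc32a1 (0.0374) and Slc17a6 (0). The highest of the 9 genes in a tumor was Calb2 in 4 of the 5 intra-CNS tumors and Gad1 in 29048. It was Npy in 8 of the 11 extra-CNS tumors, Calb1 in 29941C and 43989C, and Slc17a7 in 43992A. The summed level of the 9 genes was 101 to 1353 TPM within the brain and 6.43 to 2117 TPM outside it, and these ranges overlapped. The number of the 9 genes above 10 TPM was 1 to 9 within the brain (median 6) and 0 to 4 outside it (median 1).

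**Figure D4:**
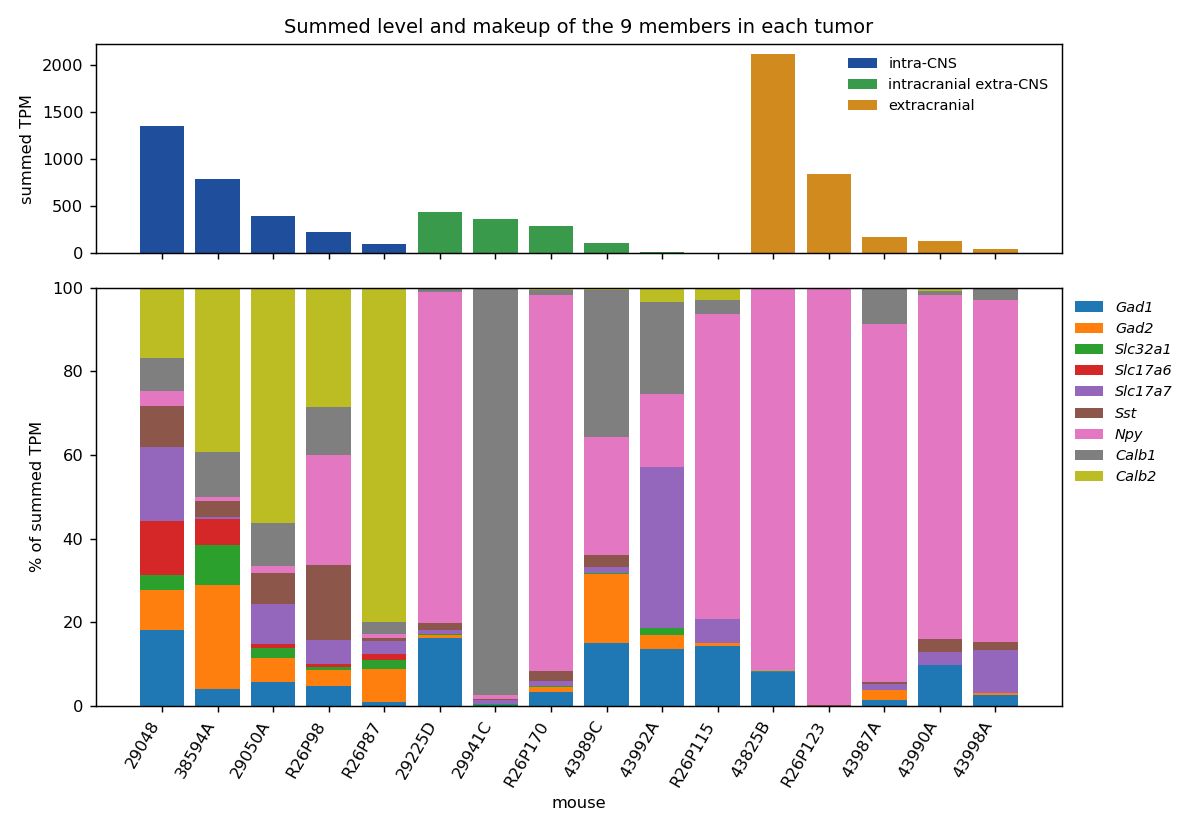
Summed TPM of the 9 genes in each tumor (top) and the percent of that sum held by each gene (bottom), with tumors ordered by group and by sum. Calb2 holds 80.0% of the sum in R26P87, Npy 99.6% in R26P123 and Calb1 97.1% in 29941C, and no gene holds more than 18.2% in 29048.

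The comparison of the 6 intracranial with the 5 extracranial tumors asks whether the site outside the brain goes with these genes. None of the 9 genes was called with edgeR, and of 21261 genes tested 0.00470% were called, which is the single gene Ttc39aos1, named here after its value was seen. At an unadjusted p under 0.05, 2 of the 9 genes passed, against 12.3% of all genes tested. These were Slc32a1 (3.84, SE 1.20) and Slc17a6 (5.19, SE 1.60), both higher in intracranial tumors with an edgeR adjusted p of 0.346. Slc32a1 was at 0 to 0.872 TPM in intracranial and at 0 to 0.0374 TPM in extracranial tumors, and Slc17a6 at 0 to 0.740 TPM and 0 to 0.0168 TPM. Both genes were thus low, and all 5 extracranial tumors lay at or under the floor. The highest intracranial tumors had 67 counts of Slc32a1 and 157 counts of Slc17a6. DESeq2 called 490 genes (2.30%) in this comparison, Slc32a1 among them (4.10, adjusted p = 0.0409). Npy was at 34.1 to 1942 TPM in extracranial and 1.62 to 347 TPM in intracranial tumors, with a difference of -2.58 (SE 1.41, edgeR adjusted p = 0.474). The label places the tumor of 43990A in the nose, and it was counted as extracranial throughout. The supplementary sample list of the study places this tumor as intracranial, and the conflict could not be settled. With 43990A counted as intracranial, again none of the 9 genes was called.

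The day of tamoxifen and the naming of the mice could be examined only in part. Among tumors induced at E6, 5 intra-CNS and 2 extra-CNS tumors remained, and Calb2 was called as higher, as were 6.29% of 20904 genes, and Npy as lower, as were 10.6%. The log2 fold changes of Gad2 (4.65), Slc32a1 (6.90), Slc17a6 (8.77), Slc17a7 (4.02) and Sst (3.27) were of the size seen in all tumors, with edgeR adjusted p of 0.191, 0.0684, 0.0887, 0.219 and 0.295. Mice were named in 2 schemes, by number or as R26P, and with the scheme as a covariate the same 6 genes were called as higher, against 13.3% of all genes tested. The difference between the schemes in the effect of site was not called for any of the 9 genes, the lowest adjusted p being that of Calb2 (-2.66, edgeR adjusted p = 0.433).

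Genes around the same transmitters were read from lists, whose counts stand against 12.9% of all genes called as higher and 13.1% called as lower, and, without 29048, 22.8% called in either direction. Of 10 genes of GABA handling, 7 were higher in intra-CNS tumors and none lower, with a list median log2 fold change of 2.67. They included Slc6a11, a GABA transporter of astrocytes (7.87, SE 1.27, edgeR adjusted p = 0.000244), and Abat (2.85, adjusted p = 0.0342) and Aldh5a1 (1.32, adjusted p = 0.0298), which encode enzymes that break down GABA. Without 29048, 5 were higher, Slc6a11 among them (5.54, adjusted p = 0.00260), while Abat (2.88, adjusted p = 0.0530) and Aldh5a1 (1.03) were not called. Without 29048 and R26P115, 8 were higher, Abat (4.54, adjusted p = 0.000205) and Aldh5a1 (1.24, adjusted p = 0.0367) among them. Of 14 genes of glutamate handling, 5 were higher and 1 lower (median 0.29). The astroglial uptake genes Slc1a2 (5.37, adjusted p = 0.00103) and Slc1a3 (2.94, adjusted p = 0.0266) and the vesicular transporter gene Slc17a8 (3.23, adjusted p = 0.00188) were higher, and Glud1, a mitochondrial glutamate dehydrogenase (-1.30, adjusted p = 0.0106), was lower. Without 29048, 4 were higher and 1 lower (median -0.34), and Slc1a3 was not called (2.36, adjusted p = 0.0909).

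Of 14 other interneuron peptides and markers, 4 were higher and 1 lower (median 0.71). Lamp5, a marker of neurogliaform interneurons (5.08, SE 1.24, edgeR adjusted p = 0.00496), Nos1, the neuronal nitric oxide synthase (2.59, adjusted p = 0.0147), and Pvalb, the gene of parvalbumin (4.19, adjusted p = 0.0310), were higher. Penk, the gene of enkephalin precursor (-5.27, SE 1.77, adjusted p = 0.0309), was lower, at 20.7 ± 13.6 TPM (SD, n = 5) against 562 ± 945 TPM (SD, n = 11). Without 29048, 2 were higher and none lower (median -0.17), Lamp5 among them (5.21, adjusted p = 0.00817), while Nos1 (2.07, adjusted p = 0.0630), Pvalb (1.91, adjusted p = 0.314) and Penk (-5.52, adjusted p = 0.0557) were not called. Without 29048 and R26P115, Nos1 (2.32, adjusted p = 0.0340) and Penk (-5.66, adjusted p = 0.0350) were called and Pvalb (1.79, adjusted p = 0.333) was not. Transcription factors of the GABAergic lineage were 7 higher and 4 lower of 14 (median 1.94). Prox1 (5.18, adjusted p = 4.73e-06) and Satb1 (2.91, adjusted p = 0.000254) were the higher genes of lowest p, and Sp9 (4.91, adjusted p = 0.00875) was higher too. Of the factors that mark the medial ganglionic eminence and its interneurons, Nkx2-1 was higher (6.82, adjusted p = 0.000344) and Lhx6 lower (-3.68, adjusted p = 0.0304). Of 12 factors of the glutamatergic lineage, 8 were higher and none lower (median 3.89), from Neurog2 (9.80, adjusted p = 4.72e-06) and Neurod6 (8.18, adjusted p = 5.25e-05) to Tbr1 (2.86, adjusted p = 0.00289) and Tlx3 (3.40, adjusted p = 0.0166). The 14 pan-neuronal genes gave 9 higher and none lower (median 3.61), among them Elavl4 (7.32, adjusted p = 3.65e-06), Dcx (7.77, adjusted p = 7.75e-06), Vamp2 (1.30, adjusted p = 0.00903) and Syn1 (2.54, adjusted p = 0.0148). Without 29048 the calls of both lists of transcription factors were the same, and of the pan-neuronal genes 7 were higher, while Vamp2 (0.83, adjusted p = 0.0647) and Syn1 (1.73, adjusted p = 0.0946) were not called.

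**Figure D5:**
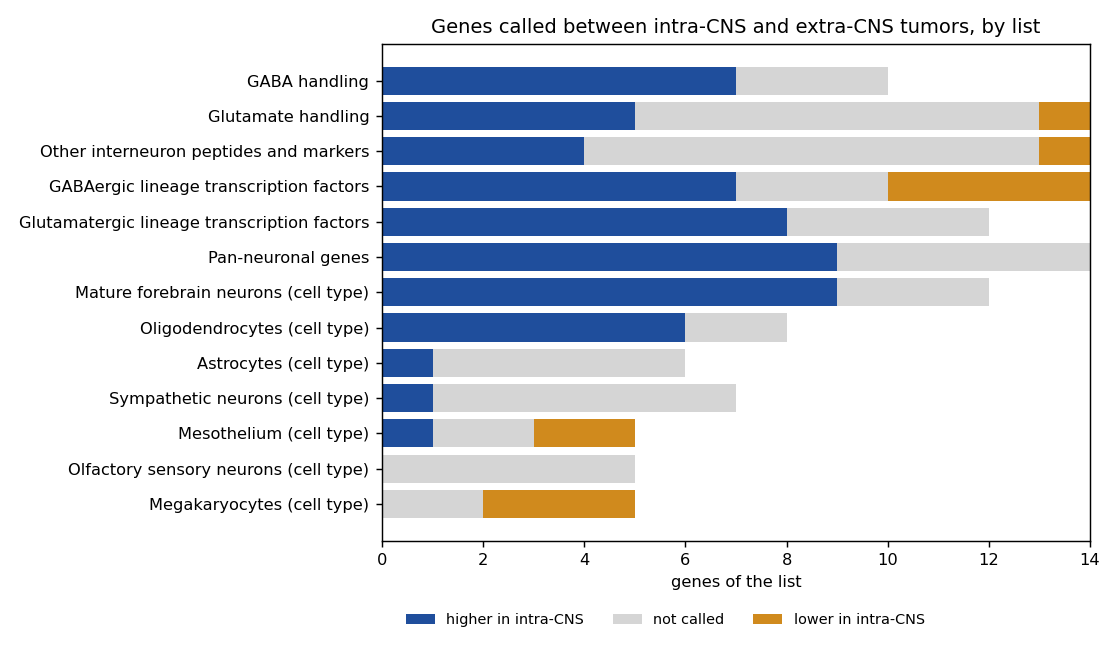
Number of genes of each list called as higher (blue) or lower (orange) in intra-CNS tumors, or not called (gray), by edgeR. In the list of GABAergic transcription factors 7 genes are higher and 4 lower, and no olfactory gene is called.

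Markers of other cell types were read against the same shares of all genes. Of 12 markers of mature forebrain neurons, 9 were higher in intra-CNS tumors and none lower (median 2.99). Nrgn (4.38, SE 0.71, edgeR adjusted p = 0.000254), Adora2a (3.02, adjusted p = 0.000185) and Pde10a (1.57, adjusted p = 0.0463) were among them, and their sum ran from 307 to 3400 TPM within and from 48.9 to 953 TPM outside the brain. This overlap rests on Ppp1r1b in R26P115, since without that gene the sums were 307 to 3340 TPM and 31.0 to 288 TPM. Without 29048, 7 of the 12 were higher, and Pde10a was not called (1.44, adjusted p = 0.101). Of 8 oligodendrocyte markers, 6 were higher (median 3.77), including Mag (3.86, adjusted p = 0.00645), Mbp (3.67, adjusted p = 0.0170) and Mal (3.60, adjusted p = 0.0336). Without 29048 edgeR called none of the 8, none had an unadjusted p under 0.05 (median -0.22), and the sum of this list, at 53.9 to 187 TPM, overlapped with the 43.1 to 148 TPM of the extra-CNS tumors. Of 6 astrocyte markers 1 was higher, the shared Slc1a2, and of 7 sympathetic markers 1 was higher, Chrna3 (4.62, adjusted p = 0.0178), which was not called without 29048 (3.19, adjusted p = 0.0991). Of 5 mesothelial markers 1 was higher and 2 lower, as given beside Calb2. The megakaryocyte markers Pf4 (-6.09, adjusted p = 0.000213), Ppbp (-6.55, adjusted p = 0.00104) and Itga2b (-1.99, adjusted p = 0.00838) were lower, 3 of 5. None of the 5 olfactory markers was called. Between intracranial and extracranial tumors, edgeR called none of the 123 genes of these lists. An unadjusted edgeR p under 0.05 was found for 25 of them, against 12.3% of all genes tested. DESeq2 called 7, with 6 higher and 1 lower in intracranial tumors, against 2.30% of all genes. The part of these cells in the levels of the 9 genes was not tested.

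Within the 11 extra-CNS tumors, other genes were ranked by how closely they followed each of the 9 genes, for the 7 genes over the floor in at least 8 tumors, by Spearman's rho on log2(TPM + 1) over 14802 genes. The genes closest to Calb1 were Dmp1, a matrix protein gene of bone and teeth (rho 0.97), Eef1d (0.93) and Elovl2 (0.92), those closest to Npy were Fam114a1 (0.92), Cd151 (0.91) and Tmem209 (0.90), and among those closest to Gad2 were Fam110c (0.96) and Zfp948 (0.91). The closest to Slc17a7 was Klhl42 (0.95), to Sst Lmo1 (0.93), to Calb2 Scrib (0.92) and to Gad1 E430018J23Rik (0.89). The highest of so many values over 11 tumors is a description and was not tested.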

How the data were processed

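RNA-seq of 16 mouse rhabdoid tumors was analysed (TruSeq stranded libraries of polyadenylated RNA). The authors aligned the reads to the mm10 genome, and STAR 2.5.3a is named for alignment and counting per gene. The deposited counts are raw. TPM values from the authors sum to 1000000 per tumor, and log2(TPM + 1) was computed here from them. The gene annotation is not given in the sources used here. Groups came from the labelled tumor location.

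The 9 genes and all gene lists were chosen with earlier results of these data known. All 21854 genes counted at least once were tested with edgeR 4.0.16 in R 4.3.3 (TMM, glmQLFit, glmQLFTest, Benjamini-Hochberg over all genes), and the 21261 genes with a count in extra-CNS tumors on these 11 tumors alone. Tested on simulated counts with the dispersions of these data, edgeR recovered 74.5% of 200 genes changed 8-fold and 50.5% changed 4-fold between 5 and 11 tumors (11 and 6 false calls). Between 6 and 5 tumors it recovered 69.5% and 36.5% (7 and 3 false calls). The changed genes were drawn only from genes with higher counts, so that these shares do not hold for genes near the floor. Outside the brain, Slc32a1 and Slc17a6, with medians of 1 and 0 counts, are among the latter. Exact permutation tests were two-sided over 4368 splits and were run for every gene of the TPM table. Alternatives were DESeq2 1.42.0, limma 3.58.1 on log2(TPM + 1), DESeq2 size factors, filterByExpr, no fold threshold, the mouse name scheme, subsets by day and site, and single tumors left out. Leaving out 29048 with R26P115, reading the lists without 29048 and summing lists without 1 gene were chosen after seeing the data.

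Named from each list were the 2 called genes of lowest and the 2 of highest adjusted p. Th, Dbh, Ddc, Prph, Ppp1r1b and Nkx2-1 were named outside this rule, and some genes that it selects are not reported here. Gene positions came from GENCODE for GRCm38 and promoters from RefSeq (GRCm38.p6). Counts carry no molecular identifiers, so that floors cover counting error only. Each sample is 1 tumor of 1 mouse, and p-values measure the spread between mice. Python 3.11.15 with scipy 1.17.1, numpy 2.4.6, pandas 2.3.3 and matplotlib 3.10.9 was used.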

Additional observations from a re-analysis of the deposited data

Results flagged for a closer look

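Within the groups, 27 sets of values (9 genes in 3 groups) were searched for a tumor that lies far from the others, and 4 were found. For normally distributed values, chance alone answers such a search in about 1 of 20 sets. That rate does not hold for sets with many values of 0, such as Slc17a6 in extracranial tumors. Gad2 was at 3.90 TPM (490 counts) in the jaw tumor of 43987A, while the next extracranial tumor was at 0.164 TPM. Slc32a1 was at 0.872 TPM (67 counts) in the intracranial tumor of 29225D, with the next at 0.255 TPM. Slc17a6 was at 0.740 TPM (157 counts) in the intracranial tumor of 29941C, with the next at 0.126 TPM. Slc17a6 was at 0.0168 TPM in the mouth tumor of 43998A, a single count where the other 4 extracranial tumors had none.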

How the results depend on the processing

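Between intra-CNS and extra-CNS tumors, 6 of the 9 genes and 5689 genes in all were called. Among tumors induced at E6 these counts were 2 and 3533. Without single tumors, 4 to 7 of the 9 genes were called, and 21.9% to 30.5% of all genes. Without both 29048 and R26P115, 5 were called, with Slc17a7 lost (1.87, edgeR adjusted p = 0.0501). Against intracranial tumors alone 4 were called (23.0% of all genes), and against extracranial tumors alone 7 (26.2%).

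The log2 fold change of Gad1 turned negative without 29048 (-1.16; range without single tumors, -1.16 to 2.01), without 29048 and R26P115 (-1.29) and at E6 (-1.20; difference in mean log2(TPM + 1), -0.99). That of Calb1 turned positive with DESeq2 size factors (0.035), DESeq2 (0.036), limma (2.60), the name scheme (1.19), extracranial tumors alone (3.36) and E6 tumors (4.29), and ran from -0.44 to 2.49 without single tumors. Neither gene was called under any of these.

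Between intracranial and extracranial tumors, 1 gene was called, against 490 with DESeq2, 0 at E8 and 0 to 3 without single tumors. Of the 9 genes, DESeq2 called 1. Directions changed at E8 for Gad1 (0.33), Slc17a7 (-0.29) and Sst (-0.88). Without single tumors, Gad1 ran from -2.80 to 2.04 and Slc17a7 from -0.11 to 0.56. The causes were not tested.

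On log2(TPM + 1), the 3 R26P mice outside and 2 inside the brain allow no p below 0.200, and 5 tumors against 2 at E6 none below 0.0952, so that these subsets cannot pass. DESeq2 gave no adjusted p for Gad1. With filterByExpr, Slc32a1, Slc17a6 and Sst were not tested between the extra-CNS sites. No paired analysis was possible because the groups hold different mice, with a single tumor from each.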
